A study of Macaca fascicularis with 28 samples.

Results

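Kinesins are motor proteins that walk along microtubules, and 38 kinesin genes were named on the arrays of macaque tongue tissue described here. A gene was a member if its symbol began with KIF and a digit, with KIFC or KIFAP, or with KLC and a digit. That rule found 70 probe sets of 52024, which stand for 38 of 14873 genes with 1 symbol. Where a gene had several probe sets, it is represented by the brightest, judged by the mean of log2 intensity in the 28 samples. By the gene lists chosen here, 7 members are classed as mitotic motors, 20 as transport motors or their subunits, and 11, KIF2A among them, as neither. The other 11 names on the list of classed kinesins are not among the members. KIF11, KIF14 and KIF20A, which are among these names, were not analysed here.

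Most transport kinesins carry vesicles, mitochondria or protein complexes toward the plus end of microtubules, which in long or polarized cells lies far from the cell center. Kinesin-1 pairs heavy chains (KIF5A, KIF5B, KIF5C) with cargo-binding light chains (KLC1 to KLC4). Kinesin-2 joins KIF3A with KIF3B or KIF3C and the associated protein KIFAP3, and is the motor that moves intraflagellar transport trains into cilia. Kinesin-3 motors (KIF1A, KIF1B, KIF1C, KIF13A, KIF16B) carry synaptic vesicle precursors, dense-core vesicles and endosomes. Mitotic kinesins move chromosomes, build the spindle or complete cytokinesis, and their transcripts are made mainly by dividing cells. Mature taste cells do not divide, live only for days to weeks and are replaced from progenitors around the base of the bud.

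The 28 samples were laser-captured areas of the tongue of 10 cynomolgus macaques, 7 females and 3 males aged 2.6 to 4.5 years. The study took the tissue post-mortem from animals due to be euthanized for other purposes, and it names no treatment. Animals 1 to 6 gave the 20 samples of the first array set. Circumvallate (CV) taste buds, from the back of the tongue, and the non-gustatory lingual epithelium (LE) next to CV papillae came from animals 1, 3, 4 and 5 (n = 4 each). Fungiform (FG) taste buds, from the front of the tongue, and the LE next to FG papillae came from all 6 animals (n = 6 each). The second array set held the top and the bottom fractions of CV taste buds of animals 7 to 10 (n = 4 each). Each sample pools many captured cells of 1 animal, so that in every comparison fewer cells of a type and less RNA per cell cannot be told apart.

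Intensities are linear units after background correction, and 25 units is the minimum the study used. Between 37.3% and 40.8% of all probe sets reached it in a sample. Markers of type II taste cells and of differentiated keratinocytes matched the labelled tissues, while those of type I taste cells did so only in part. All 5 markers of type II taste cells were higher in CV and in FG taste buds than in the adjacent LE, while all 8 markers of differentiated keratinocytes were lower. The summed keratinocyte marker level lay between 64310 and 83190 units in LE and between 2398 and 19870 in whole taste buds. Of 2 tested type I markers, SLC1A3 was higher in CV taste buds (log2 change 4.24), and ENTPD2 was lower in FG taste buds (-0.79). Neither passed the test at the other site (-0.73 for SLC1A3 in FG and -0.37 for ENTPD2 in CV taste buds).

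Of the 38 kinesins, KIF5A, a heavy chain known from neurons, stayed under 25 units in every sample, and 9 members reached 25 units in every sample. A member was tested if it reached 25 units in at least 4 samples of the fit. This left 29 members in the first array set (5 mitotic, 16 transport, 8 other) and 24 in the second (5, 13 and 6). The 6 group means of all members are drawn in the heat map.

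**Figure D1:**
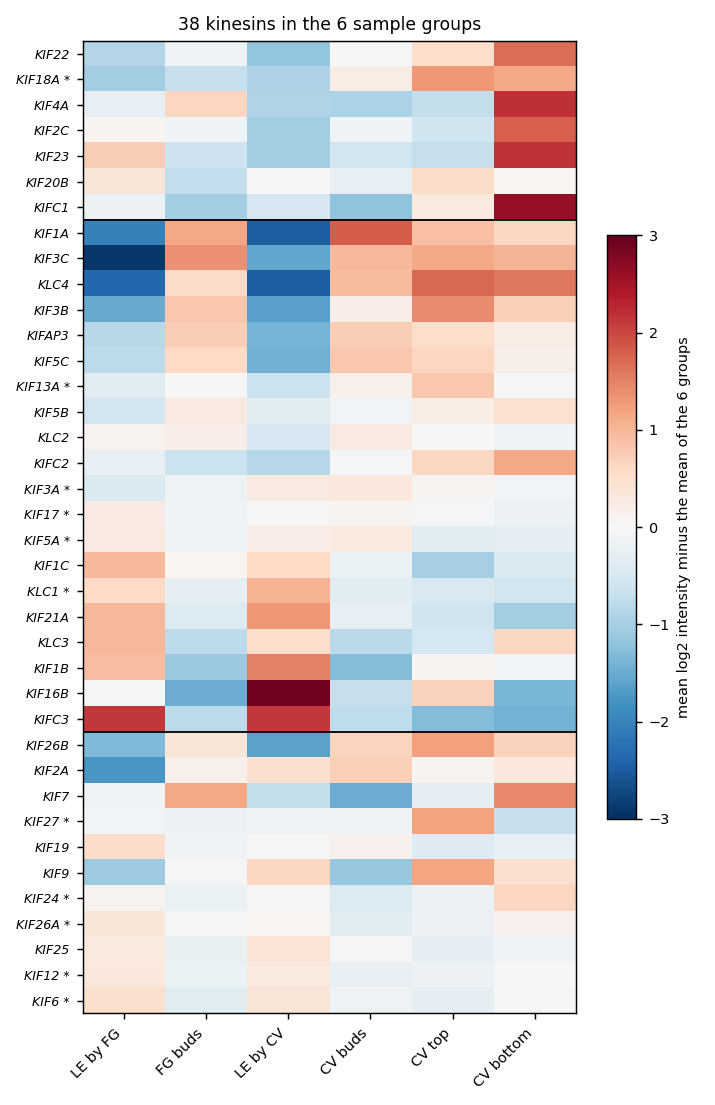
Mean log2 intensity of 38 kinesins (rows) in the 6 sample groups (columns), each shown as the difference from the mean of the 6 groups of that gene. Lines part the mitotic, transport and other motors, and an asterisk marks genes whose group means all lie under 25 units. KIF1A, KIF3C and KLC4 are low in both epithelia and high in all taste bud groups, KIFC3 shows the opposite pattern, and 5 of 7 mitotic motors are highest in the bottom fraction. The groups of the first and the second array set differ also in array set.

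Transport kinesins changed in both directions between taste buds and epithelium, as did the tested probe sets as a whole. In CV taste buds, 7 kinesins were higher than in the adjacent LE (KIF1A, KLC4, KIF3C, KIF26B, KIF5C, KIFAP3 and KIF3B) and 5 were lower (KIF16B, KIFC3, KIF1B, KIF21A and KIF1C), among 29 tested. Over all tested probe sets, 17.3% were higher and 18.0% were lower. KIF16B is counted among the lower although it passed the filter through LE samples alone. KIF3C, KLC4, KIF26B and KIF5C, counted among the higher, reached 25 units in too few LE samples to pass the filter without their taste bud samples. In FG taste buds, 9 kinesins were higher (KIF3C, KIF1A, KLC4, KIF3B, KIF2A, KIF26B, KIFAP3, KIF5C and KIF5B) and 8 were lower (KIFC3, KIF1B, KLC3, KIF16B, KIF21A, KIF20B, KIF1C and KIF19), against 21.1% and 20.2% of all tested probe sets. All 12 kinesins called in CV taste buds were called in the same direction in FG taste buds, which is 70.6% of the 17 called there. Among them, KIF16B lost its call in FG taste buds with values under 25 raised to 25 (log2 change -0.2). The 2 comparisons use samples of the same animals. The share of all probe sets called in CV taste buds that were called alike in FG taste buds was not computed. Whether this overlap is particular to kinesins was therefore not tested. With the arrays centered on their medians, which moved the median change of all probe sets in FG taste buds from 0.05 to -0.387 log2 units, 7 kinesins were higher and 13 lower in FG taste buds.

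By class, 6 of 16 tested transport kinesins were higher and 5 lower in CV taste buds, and 7 were higher and 6 lower in FG taste buds. Of 8 tested members outside the 2 classes, 1 was higher in CV taste buds, and 2 were higher and 1 lower in FG taste buds. Over all tested probe sets, 17.3% were higher and 18.0% lower in CV taste buds, and 21.1% and 20.2% in FG taste buds. For the transport class the median log2 change was 0.51 over LE in CV taste buds and -0.14 in FG ones, beside -0.08 and 0.05 over all tested probe sets. Its members lay on both sides of 0. Other probe sets of the called genes had the same sign in 8 of 9 cases in CV and in 13 of 15 cases in FG taste buds.

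**Figure D2:**
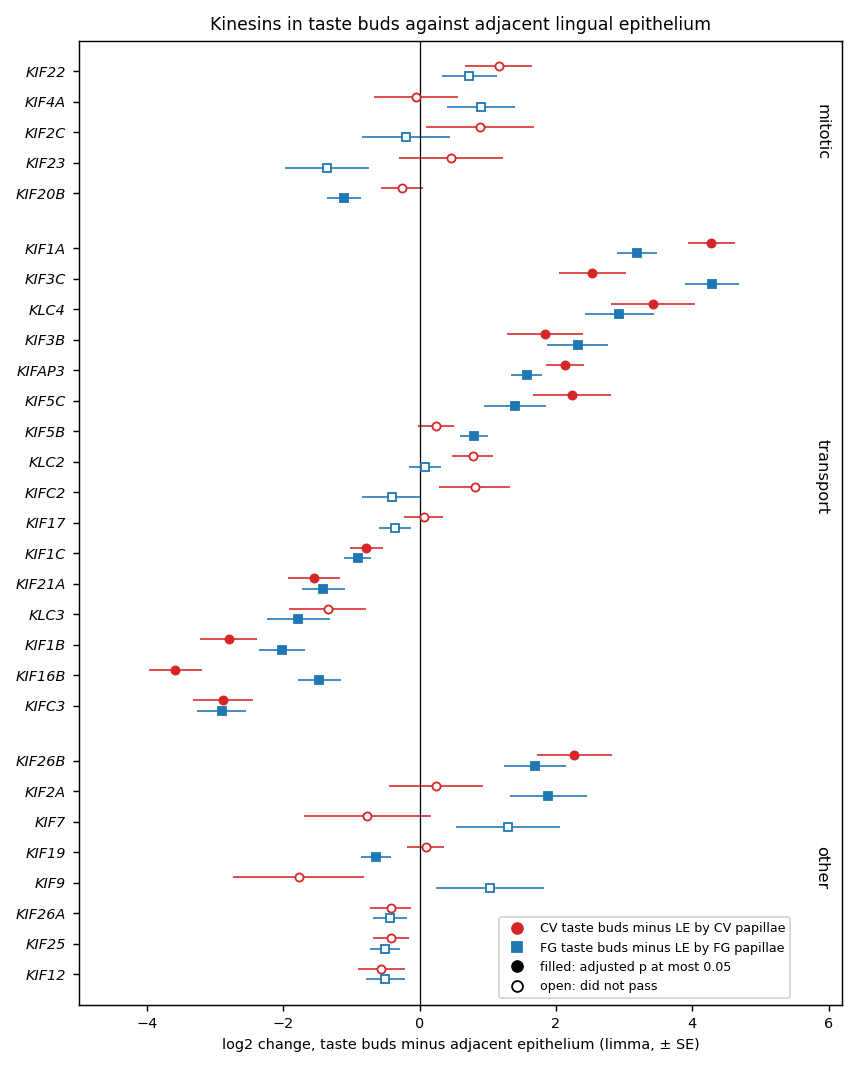
Log2 change of the 29 tested kinesins between CV taste buds and their adjacent LE (circles) and between FG taste buds and theirs (squares), with standard errors from limma. Filled symbols passed an adjusted p of 0.05. The transport motors run from -3.58 (KIF16B in CV taste buds, where it was under 25 units in all samples) to 4.29 (KIF3C in FG taste buds), and among the mitotic motors KIF20B in FG taste buds is the only filled symbol.

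KIF1A, the kinesin-3 motor of synaptic vesicle precursors in axons, had 357, 535, 574 and 455.5 units in CV taste buds of animals 1, 3, 4 and 5. Its level in the LE next to CV papillae of the same animals was 23.1, 17.9, 31.3 and 27.3 units. Every taste bud sample was far above every LE sample. Its log2 change was 4.28 ± 0.35 (standard error, as for all log2 changes below; adjusted p = 9.92e-07), at least 17.5-fold. KIF1A ran from 208 to 419 units with a median of 319 in FG taste buds, and in the LE next to FG papillae from 18.7 to 54.1 with a median of 33.7. These groups did not overlap either, and the log2 change was 3.19 ± 0.29 (adjusted p = 1.63e-06).

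The identity of that probe set rests on the study. The study named it KIF1A, while the annotation of the array gives it to RCAN2, a regulator of calcineurin. A further probe set annotated to RCAN2 was also higher at both sites, by 6.51 ± 0.94 log2 units for CV (adjusted p = 0.000132) and by 4.11 ± 0.77 for FG taste buds (adjusted p = 0.000936), while another one stayed between 4.94 and 25.4 units in all samples. Whether the KIF1A values measure KIF1A or RCAN2 was not settled here.

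Of the 4 kinesin-3 motors tested, the other 3 (KIF1B, KIF1C and KIF16B) were lower in both taste bud types by their brightest probe sets. KIF1B, a carrier of mitochondria and synaptic vesicle precursors, had 45.2, 118, 98.3 and 134 units in CV taste buds and 473, 768, 615.5 and 748 in the adjacent LE. Its log2 change was -2.80 ± 0.42 (adjusted p = 0.000172), 6.98-fold lower, with no overlap between the groups. KIF1B ran from 75.3 to 183 units (median 105) in FG taste buds and in the LE next to FG papillae from 170 to 677.5 (median 508), and 1 LE sample reached into the taste bud range. That log2 change was -2.02 ± 0.34 (adjusted p = 0.000439). The change of KIF1B was not seen in its other probe sets. The second brightest had log2 changes of 0.06 ± 0.47 for CV and 0.37 ± 0.39 for FG taste buds, and the third had -0.07 ± 0.30 and -0.60 ± 0.24, none of which passed the test.

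KIF1C, a motor of integrin and dense-core vesicle transport, was bright in all samples. It had 980, 1313, 1065 and 1332 units in CV taste buds and 2427, 1899, 1887 and 1850 in the adjacent LE, and all LE samples were above all taste bud samples. The log2 change was -0.78 ± 0.24 (adjusted p = 0.0204), and it did not pass the test without animal 1 (-0.61) or without animal 4 (-0.77). Among FG taste buds KIF1C ran from 1119 to 1815 units (median 1311), below the adjacent LE at 2023 to 3259 (median 2529), with a log2 change of -0.91 ± 0.20 (adjusted p = 0.00247). A second probe set of KIF1C was lower too, with log2 changes of -1.80 ± 0.36 for CV and -1.55 ± 0.30 for FG taste buds.

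KIF16B, an endosomal kinesin-3, was above 25 units mainly in the LE of the back of the tongue. It had 79.2, 108, 169.5 and 195 units in the LE next to CV papillae and 9.71, 6.36, 10.4 and 21.6 units in CV taste buds. All taste bud samples were under 25 units, so that the gene passed the filter through LE samples, the group in which it was high, and its log2 change rests on values below that minimum. The log2 change was -3.58 ± 0.39 (adjusted p = 1.21e-05), at least 5.19-fold lower in CV taste buds. Next to FG papillae only the LE of animal 5, at 57.5 units, exceeded 25 units. There the log2 change between FG taste buds and LE was -1.47 ± 0.32 (adjusted p = 0.00266), and it was -0.20 and did not pass the test with values under 25 raised to 25. The fifth kinesin-3 motor, KIF13A, was above 25 units in 1 CV, 1 FG, 1 LE and 1 top fraction sample and was not tested in the first array set. Its highest value was 229.9 units, in 1 CV taste bud sample.

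Of 5 kinesin-2 subunits 4 were tested, and 3 of them (KIFAP3, KIF3C and KIF3B) were higher in both taste bud types, beside 17.3% and 21.1% of all tested probe sets. KIFAP3, the subunit that links kinesin-2 to cargo, had 4864, 3969, 4445 and 4565 units in CV taste buds and 887, 1514, 914 and 877 in the adjacent LE. It ran from 3952 to 5286 units (median 4470) in FG taste buds and in the adjacent LE from 1053 to 2264 (median 1567). No taste bud sample overlapped with an LE sample. The difference from LE was 4.37-fold for CV taste buds (2.13 ± 0.28 log2 units, adjusted p = 6.02e-05) and 2.98-fold for FG taste buds (1.57 ± 0.23, adjusted p = 0.000131). A second probe set of KIFAP3 had changes of 2.11 ± 0.53 and 2.07 ± 0.43, which also passed the test.

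KIF3C, a kinesin-2 motor known mainly from neurons, had 179, 82.0, 360 and 144 units in CV taste buds and 16.6, 46.6, 29.4 and 30.0 in the adjacent LE. KIF3C ran from 129 to 322 units (median 236) in FG taste buds, and all 6 LE samples next to FG papillae were under 25 units (6.49 to 20.3). The groups were apart at both sites. CV taste buds were at least 5.22-fold higher (2.53 ± 0.49 log2 units, adjusted p = 0.00128), and FG taste buds at least 8.80-fold (4.29 ± 0.40, adjusted p = 2.11e-06). A second probe set of KIF3C rose by 2.55 ± 0.42 and 2.38 ± 0.34 log2 units.

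KIF3B, the widely expressed kinesin-2 motor, had 61.7, 190, 371 and 187 units in CV taste buds and 32.9, 31.5, 69.5 and 68.1 in the adjacent LE, where the lowest taste bud sample overlapped with LE. Its log2 change was 1.84 ± 0.56 (adjusted p = 0.0194), and it did not pass the test without animal 3 (1.59) or animal 4 (1.65). FG samples of KIF3B ran from 180 to 448 units (median 231), above the LE next to FG papillae at 23.4 to 124 (median 51.1), with a log2 change of 2.32 ± 0.45 (adjusted p = 0.00131). A second probe set of KIF3B had changes of 0.17 ± 0.78 (CV) and 1.62 ± 0.64 (FG) and did not pass the test (adjusted p = 0.884 and 0.0558). KIF3A, the partner of both motors, was under 25 units in all but 1 CV and 1 top fraction sample and was not tested. KIF17, the homodimeric kinesin-2, did not pass the test (log2 changes of 0.06 ± 0.29 and -0.36 ± 0.24).

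The kinesin-1 light chains KLC4 and KLC3 lay on opposite sides. KLC4 had 142, 175, 220 and 242 units in CV taste buds and 39.1, 23.5, 14.9 and 7.28 in the adjacent LE. The range was 82.6 to 258 units (median 144) in FG taste buds and 4.92 to 79.7 (median 20.5) in the adjacent LE. Taste buds and LE did not overlap at either site. The log2 changes were 3.42 ± 0.62 (adjusted p = 0.000762), at least 6.82-fold, and 2.93 ± 0.51 (adjusted p = 0.000524), at least 4.78-fold.

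KLC3, a light chain best known from sperm tails, was lower in FG taste buds, where it ran from 31.8 to 151 units (median 81.4) against 108 to 541 (median 309.5) in the adjacent LE. Its ranges overlapped, but the value was lower in the taste buds of all 6 animals (-1.78 ± 0.46 log2 units, adjusted p = 0.00771). In CV taste buds KLC3 had 52.7, 103, 136 and 61.1 units against 635, 123.5, 212 and 114 in LE. It was lower in 4 of 4 animals but did not pass the test there (-1.35 ± 0.57, adjusted p = 0.0797), while a second probe set of KLC3 did (-1.13 ± 0.40, adjusted p = 0.0431). KLC2 passed neither test, with log2 changes of 0.78 ± 0.30 for CV (adjusted p = 0.0552) and 0.08 ± 0.24 for FG taste buds. KLC1 was under 25 units in all samples but 1 LE sample and was not tested.

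Among the heavy chains, KIF5B, the ubiquitous one, had 1534, 1775, 2148 and 2185 units in CV taste buds and 1488, 1660, 1641 and 1614 in the adjacent LE, where the groups overlapped and the change did not pass the test (0.24 ± 0.26, adjusted p = 0.501). FG samples of KIF5B ran from 1692 to 3024 units (median 2580), above the LE at 983 to 1582 (median 1505). That log2 change was 0.80 ± 0.21 (adjusted p = 0.00897). It did not pass the test without animal 4 (0.74) or with arrays centered on their medians (0.36).

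KIF5C, a heavy chain known from neurons, was dim. It had 17.7, 174, 26.4 and 78.7 units in CV taste buds and 11.8, 12.4, 9.62 and 8.98 in the adjacent LE, and all LE samples were below all taste bud samples. The log2 change was 2.24 ± 0.57 (adjusted p = 0.00739), and it did not pass the test without animal 3 (1.72), without animal 5 (1.95) or with values under 25 raised to 25 (1.13). In FG taste buds KIF5C ran from 24.6 to 77.2 units (median 50.0) against 5.84 to 36.8 (median 19.4), with a log2 change of 1.40 ± 0.46 (adjusted p = 0.027) that was lost without animal 2 (1.40), 4 (1.48) or 6 (0.93). It was also lost with values under 25 raised to 25 (0.72) and with arrays centered on their medians (0.95). Neither KIF5C call passed the adjusted paired test of the methods. The same loss was seen for KIF3C, KIF3B, KLC4, KIFC3, KIF1C and KIF26B in CV taste buds, and for KIF16B, KIF26B and KIF2A in FG taste buds. Another, dimmer probe set is named KIF5C by the study, is given to SPRY2 by the annotation and was higher too, with log2 changes of 3.42 ± 0.60 and 2.14 ± 0.49. A further probe set that both sources name SPRY2 also rose, by 2.89 ± 0.59 and 2.13 ± 0.48.

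KIFC3, a minus-end-directed motor of apical transport and adherens junctions in epithelia, had 91.9, 22.4, 31.1 and 21.6 units in CV taste buds and 307, 192, 189 and 368 in the adjacent LE. KIFC3 ran in FG taste buds from 22.4 to 53.3 units (median 33.4) against 132 to 546 (median 243) in LE. All taste bud samples were below all LE samples. The log2 changes were nearly equal, with -2.88 ± 0.44 for CV (adjusted p = 0.000198) and -2.90 ± 0.36 for FG taste buds (adjusted p = 3.03e-05). KIFC2, another minus-end motor, did not pass the test in either (0.81 ± 0.52 and -0.41 ± 0.43).

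KIF21A, which slows microtubule growth at the cell cortex, had 188, 530, 484 and 833 units in CV taste buds and 639, 1754, 1286 and 2070 in the adjacent LE. The ranges overlapped, but the level was lower in the taste buds of all 4 animals (-1.55 ± 0.38 log2 units, adjusted p = 0.00614). FG samples of KIF21A ran from 261 to 563 units (median 428), below the LE at 655 to 1495 (median 1133), with a log2 change of -1.41 ± 0.31 (adjusted p = 0.0029). A second probe set of KIF21A was lower by log2 changes of -2.26 ± 0.55 and -2.78 ± 0.45.

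**Figure D3:**
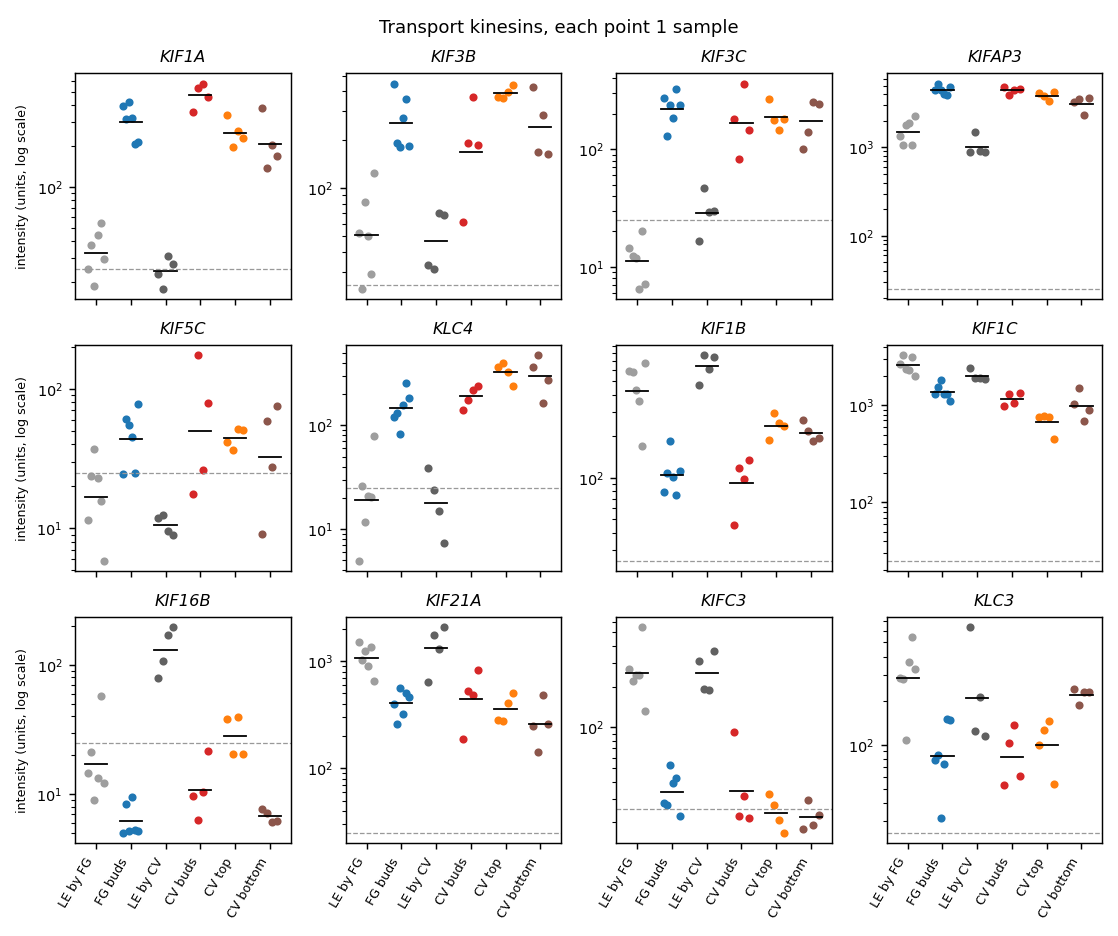
Intensity of 12 transport kinesins in each sample (points) of the 6 groups, on a log scale, with the geometric mean of each group as a bar and 25 units as a dashed line. The upper 6 genes lie higher in taste buds than in both epithelia, and the lower 6 lie lower in whole taste buds than in the adjacent epithelium. KIF16B exceeds 25 units in all 4 samples of LE next to CV papillae and in 1 of 6 next to FG papillae.

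Outside the transport class, KIF26B, a kinesin linked to cell adhesion and polarity, was higher in both taste bud types. Its brightest probe set was named by the study alone. It had 59.6, 67.3, 50.7 and 486 units in CV taste buds and 17.5, 22.7, 22.5 and 20.6 in the adjacent LE, where no LE sample reached 25 units. Animal 5 held the highest KIF26B value in CV and, at 354.5 units, in FG taste buds. The log2 changes were 2.27 ± 0.55 (adjusted p = 0.00594) and 1.69 ± 0.45 (adjusted p = 0.00907), and a second probe set of KIF26B was also higher, by 0.87 ± 0.32 for CV (adjusted p = 0.0494) and 2.43 ± 0.26 for FG taste buds (adjusted p = 8.46e-06).

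KIF2A, which shortens microtubules at their ends, was higher in FG taste buds (117 to 355 units, median 207) than in the adjacent LE (18.2 to 358.5, median 29.6). The groups overlapped because the LE of animals 5 and 6 had 174 and 358.5 units. The log2 change was 1.89 ± 0.57 (adjusted p = 0.0165), with higher values in 4 of 6 animals, and it was lost without any of animals 1 (1.74), 2 (1.59), 3 (1.83) and 4 (1.41) and against all LE samples as 1 group (0.98). The 3 other tested probe sets of KIF2A were also higher in FG taste buds, by 1.96 ± 0.53, 2.45 ± 0.74 and 2.45 ± 0.49 log2 units. In CV taste buds the brightest KIF2A probe set did not pass the test (0.24 ± 0.69), while the second did (2.16 ± 0.65, adjusted p = 0.0187). KIF19, a motor that sets the length of motile cilia, was lower in FG taste buds by a log2 change of -0.64 ± 0.22 (adjusted p = 0.0354), and this was lost without animal 2 (-0.52), 3 (-0.63), 4 (-0.60) or 5 (-0.64) and against all LE samples as 1 group (-0.42).

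Markers of other tissue elements moved with these comparisons. The keratinocyte markers fell in the same taste bud samples in which KIFC3, KIF1B, KIF21A, KIF1C and KIF16B fell. Immune cell markers were lower as well, 4 of 6 in CV and 3 of 6 in FG taste buds, with summed levels of 200 to 560 units in CV taste buds against 2341 to 4139 in the adjacent LE, and of 358 to 1042 in FG taste buds against 706.5 to 1432. Type III taste cell markers were higher in 3 of 4 tested at both sites, and their sums ran from 1094 to 2172 units in CV taste buds against 66.8 to 138 in LE. Of 3 basal keratinocyte markers, COL17A1 (3.01 ± 0.29 and 3.55 ± 0.24 log2 units) and ITGB4 (3.26 ± 0.54 and 2.85 ± 0.44) were higher in CV and FG taste buds, while TP63 was lower in FG taste buds (-2.71 ± 0.67). Their sums, 1133 to 1312 units in CV and 1066 to 1719 in FG taste buds, lay within those of the adjacent LE, 832 to 2138 and 303.8 to 3587. Of 5 tested fibroblast markers POSTN alone was higher, at both sites (3.79 ± 1.16 and 5.40 ± 0.95), and the sums of all 6 ran from 630.6 to 3874 units in CV and 738.8 to 3592 in FG taste buds, against 864 to 2122 and 718.5 to 4257 in LE. Muscle markers summed to between 77.5 and 4576 units in LE next to FG papillae and passed no test. The part of these cells in the kinesin changes was not tested.

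Between CV and FG taste buds, both sampled from 4 animals, no kinesin passed the test in limma, beside 0.871% of all probe sets. At an unadjusted p under 0.05, 0 were higher and 2 were lower in CV taste buds in limma, and 0 and 1 by the paired test of the study's methods. The largest difference was that of KIF7, a ciliary regulator of Hedgehog signalling, with 8.94, 29.0, 38.5 and 9.02 units in CV and 62.0 to 240 units in FG taste buds. Its groups did not overlap, but the log2 difference of -2.84 ± 0.89 had an adjusted p of 0.185. The 16 transport kinesins differed by -0.69 to 0.80 log2 units between the taste bud types.

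The difference of the differences was tested as well, as the change in CV taste buds over their LE minus that in FG taste buds over theirs. No kinesin passed the test in limma (0.871% of all probe sets did), and at an unadjusted p under 0.05 the difference was above 0 for 1 and below 0 for 3. KIF16B came nearest, at -2.11 ± 0.51 log2 units (adjusted p = 0.0662), and it passed the test with values under 25 raised to 25 (-2.17, adjusted p = 0.00825). In the 8 other alternative settings run for it, its adjusted p lay between 0.0852 and 0.283. KIF3C, with log2 changes of 2.53 and 4.29 at the 2 sites, differed by -1.76 ± 0.63 (adjusted p = 0.205).

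Between the epithelia, KIF16B was the 1 kinesin of 29 that passed the test, beside 1.26% of all probe sets. It was higher in LE next to CV than next to FG papillae in 4 of 4 animals, by 2.91 ± 0.38 log2 units (adjusted p = 0.00209), at least 4.21-fold. Its 4 values next to CV papillae, from 79.2 to 195 units, lay above the highest of 57.5 units next to FG papillae. KIF16B passed the filter through these 4 samples, the group in which it was high, and 1 LE sample next to FG papillae. The other LE samples next to FG papillae were under 25 units, so that the log2 change rests on values below that minimum. By the adjusted paired test of the methods, neither KIF16B nor any other probe set passed between the epithelia. Without animal 5 KIF16B was not tested, because fewer than 4 samples then reached 25 units. Without animal 6, KIF2A also passed the test (2.75, adjusted p = 0.0479), against 2.51 ± 0.66 (adjusted p = 0.0793) with all animals. Immune markers summed to 2341 to 4139 units next to CV and 706.5 to 1432 units next to FG papillae, and 1 of 6 of them was higher next to CV papillae. Their part in the KIF16B difference was not tested.

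Among the mitotic kinesins, KIF22 reached 25 units in all 20 samples of whole taste buds and LE and KIF20B in 19 of them, while the others reached it in part of the samples or in few. In CV taste buds none of the 5 tested passed the test in limma against the adjacent LE, and without adjustment 1 was higher (KIF22) and 0 were lower at p under 0.05. KIF22, a chromokinesin that binds chromosome arms, had 49.9, 254, 49.4 and 73.8 units in CV taste buds and 34.3, 45.6, 28.0 and 42.4 in LE. Each taste bud sample was above each LE sample, and the log2 change was 1.16 ± 0.49 (adjusted p = 0.0819). A second probe set of KIF22 had -0.83 ± 0.38 and did not pass the test. In FG taste buds KIF20B, a motor of late cytokinesis, was the mitotic kinesin that passed the test, and it was lower. KIF20B ran from 24.7 to 43.8 units (median 33.6) in FG taste buds and from 56.4 to 93.9 (median 76.7) in the adjacent LE, with no overlap (-1.11 ± 0.25 log2 units, adjusted p = 0.00366). Of its 3 other probe sets, 1 was not tested, and the other 2 had 0.69 ± 0.42 and -0.90 ± 0.41 in FG taste buds and did not pass the test. The first of these was higher in CV taste buds of 4 of 4 animals (1.53 ± 0.51, adjusted p = 0.0325).

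KIFC1, a minus-end motor that clusters spindle poles, was under 25 units in all CV and FG taste bud samples and in all LE samples but 1. KIF18A, which limits chromosome oscillation, was under 25 units in 19 of these 20 samples. KIF2C, the kinetochore depolymerase MCAK, reached 25 units in 1 of 4 CV and 2 of 6 FG taste bud samples, and in 0 of 4 and 2 of 6 samples of the adjacent LE, with a highest value of 137 units in LE. KIF23, which bundles the central spindle, reached it in 2 CV and 2 FG taste bud samples and in 1 and 4 of the adjacent LE, where it went up to 252 units. KIF4A, which organizes the spindle midzone, reached it in 0 and 3 taste bud samples and in 0 and 1 of LE.

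The bottom fraction of CV taste buds had the higher mean log2 level of 5 of the 7 mitotic motors. Between the fractions, 0 kinesins of 24 tested were higher in the top, beside 1.68% of all probe sets, and 2 were lower in the top, KIF2C and KIFC1, beside 1.46%. At an unadjusted p under 0.05, 0 were higher and 5 lower in limma, and 1 and 5 by the paired test of the methods, which left none after adjustment. Of the mitotic kinesins, KIF2C and KIF23 passed the filter mainly through bottom samples, with 4 bottom samples at 25 units or more and 0 and 1 top samples, so that the count of those that passed is no measure of all 7. Centering the arrays moved the median log2 change of all probe sets from 0.13 to -0.007 and left 2 kinesins lower.

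KIFC1 had 174.5, 118, 148 and 64.0 units in the bottom fractions of animals 7, 8, 9 and 10 and 27.0, 19.5, 35.8 and 17.2 in the top fractions of the same animals. All bottom samples were above all top samples. Between the fractions the log2 change was -2.31 ± 0.27 (adjusted p = 0.0235), at least 4.24-fold lower in the top. The fit had 3 residual degrees of freedom, and KIFC1 did not pass the test without animal 7 (-2.18), 8 (-2.21), 9 (-2.40) or 10 (-2.44), nor with no filter on dim probe sets (adjusted p = 0.0514 in limma). With an animal left out, no probe set of the arrays passed, except 1 without animal 9, so that this loss is not particular to KIFC1.

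KIF2C had 52.6, 58.3, 191 and 59.1 units in the bottom and 15.5, 13.7, 18.8 and 12.1 in the top fractions. All top samples were under 25 units, so that KIF2C passed the filter through the bottom samples, and it was not tested with an animal left out. Its log2 change was -2.37 ± 0.33 (adjusted p = 0.0298), at least 3.07-fold lower in the top, and it did not pass the test with values under 25 raised to 25 (-1.62) or with no filter on dim probe sets (adjusted p = 0.0666).

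KIF23 had 159, 117.5, 604 and 29.1 units in the bottom and 6.47, 17.3, 53.8 and 20.1 in the top fractions. It was lower in the top in 4 of 4 animals, and the ranges overlapped. Its difference of -2.85 ± 0.64 log2 units missed the threshold (adjusted p = 0.0681). KIF22 had 218.5, 144.5, 246 and 637.5 units in the bottom and 171, 121, 119.5 and 82.5 in the top fractions, again lower in the top in 4 of 4 animals (-1.15 ± 0.49, adjusted p = 0.252). KIF20B had the opposite sign, at 98.1, 72.0, 43.5 and 41.6 units in the bottom and 79.7, 120, 68.4 and 77.5 in the top, higher in the top in 3 of 4 animals (0.50 ± 0.30, adjusted p = 0.405). Thus 4 of the 5 tested mitotic kinesins lay lower in the top fraction of every animal, and 2 of them passed the test. This count is shaped by the filter, which KIF2C and KIF23 passed mainly through their bottom samples. The share of all probe sets lower in the top fraction of every animal was not computed.

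KIF4A and KIF18A were not tested between the fractions. KIF4A had 22.0, 73.5, 377 and 38.5 units in the bottom and 8.31, 7.69, 16.7 and 6.95 in the top, with no overlap. KIF18A had 8.24, 19.4, 102 and 10.9 units in the bottom and 22.1, 28.9, 26.7 and 17.3 in the top, where the ranges overlapped and 3 of 4 animals had the higher value in the top. The bottom fraction of animal 9 was the highest of the 8 samples for KIF23, KIF2C, KIF4A and KIF18A, but not for KIFC1 or KIF22.

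**Figure D4:**
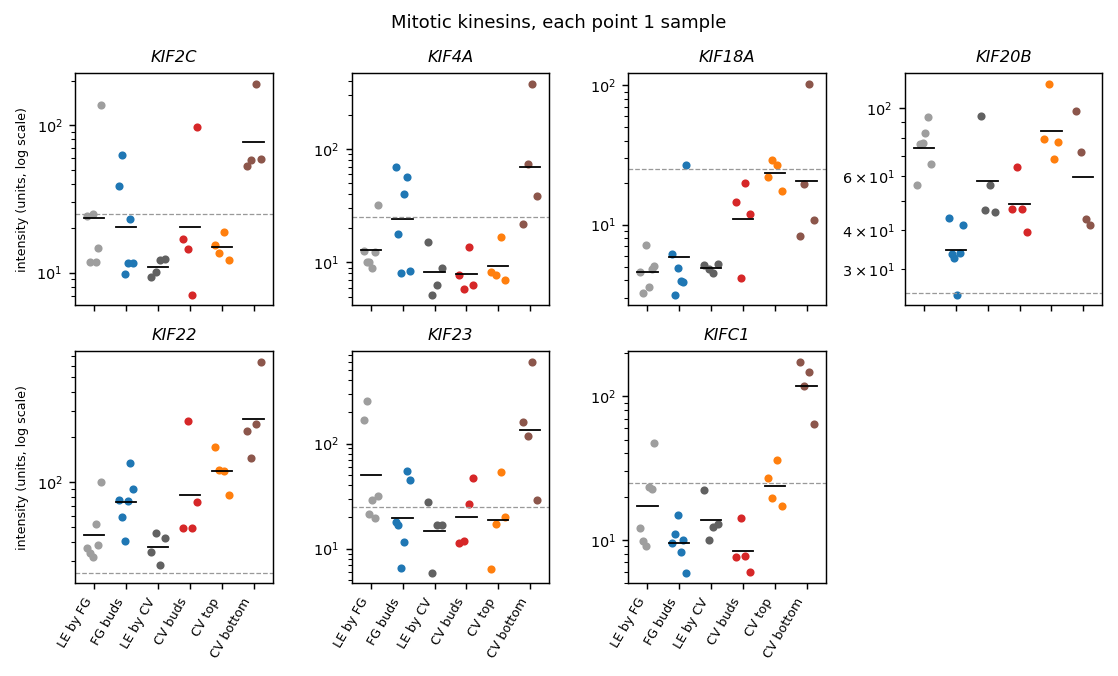
Intensity of the 7 mitotic kinesins in each sample (points) of the 6 groups, on a log scale, with the geometric mean of each group as a bar and 25 units as a dashed line. KIFC1, KIF2C and KIF4A lie higher in all 4 bottom fractions than in all 4 top fractions, while KIF20B and KIF18A overlap between the fractions.

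Other genes of mitosis were taken from a list of partners. Of 15 tested, 7 were lower in the top fraction and 0 were higher, beside 1.46% and 1.68% of all probe sets, and 8 did not pass the test. A gene high in the bottom fraction can pass the filter through its bottom samples alone, so that this count is no measure of the whole list. TOP2A, the topoisomerase that untangles chromosomes, ran from 407 to 640 units in the bottom and from 14.0 to 112 in the top (-4.16 ± 0.52, adjusted p = 0.0248). HMMR, a spindle assembly factor, had -3.74 ± 0.37, the cyclin CCNB2 -3.45 ± 0.28 and the proliferation marker MKI67 -3.35 ± 0.52, all past the test. In whole taste buds the tested set was another one, as AURKA, AURKB, CCNB2 and HMMR, called between the fractions, passed the filter only there. Against the adjacent LE, 4 of 11 tested were higher in CV taste buds (ASPM, CCNA2, TOP2A and ECT2), beside 17.3% of all probe sets. In FG taste buds ECT2 was higher and DLGAP5 lower, beside 21.1% and 20.2%. MKI67 and CENPF, also called between the fractions, passed no test in whole taste buds.

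Markers of other cells also separated the fractions. Fibroblast markers were lower in the top in 4 of 5 tested, with summed levels of 4555 to 6116 units in the bottom and 627 to 1804 in the top. Basal keratinocyte markers were lower in the top in 1 of 3, with sums of 2785 to 5425 units in the bottom and 984 to 1958 in the top. Schwann cell and nerve markers summed to 74.8 to 131 units in the bottom and 26.2 to 51.5 in the top, and the 1 tested did not pass the test. Immune markers summed to 455 to 1010 units in the bottom and 610 to 2150 in the top. The part of these cells in the mitotic kinesin levels was not tested.

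No tested transport kinesin passed the test between the fractions. The 13 tested had log2 changes between -1.15 and 0.71, with a median of 0.14 beside 0.13 over all probe sets. At an unadjusted p under 0.05, 0 were higher and 1 lower in limma, which was KLC3, the transport kinesin with the largest change. It had 241, 186, 230 and 228 units in the bottom and 99.1, 126, 146 and 53.5 in the top, with no overlap (-1.15 ± 0.34, adjusted p = 0.127). KIF16B was not tested, since 2 samples reached 25 units. It had 38.0, 20.6, 39.6 and 20.6 units in the top and 7.72, 7.23, 6.07 and 6.25 in the bottom, with no overlap, and all bottom samples were below the minimum. KIF1A had 383, 138, 204 and 170 units in the bottom and 338, 197, 256 and 228 in the top, where the samples overlapped (0.27 ± 0.26). KIFAP3 was higher in the top in 4 of 4 animals, by 0.30 ± 0.24 log2 units (adjusted p = 0.533). Outside both classes, KIF7 had 166.5, 73.3, 453.5 and 54.3 units in the bottom and 42.8, 45.1, 44.0 and 29.5 in the top, with no overlap and no call (-1.73 ± 0.48, adjusted p = 0.115).

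**Figure D5:**
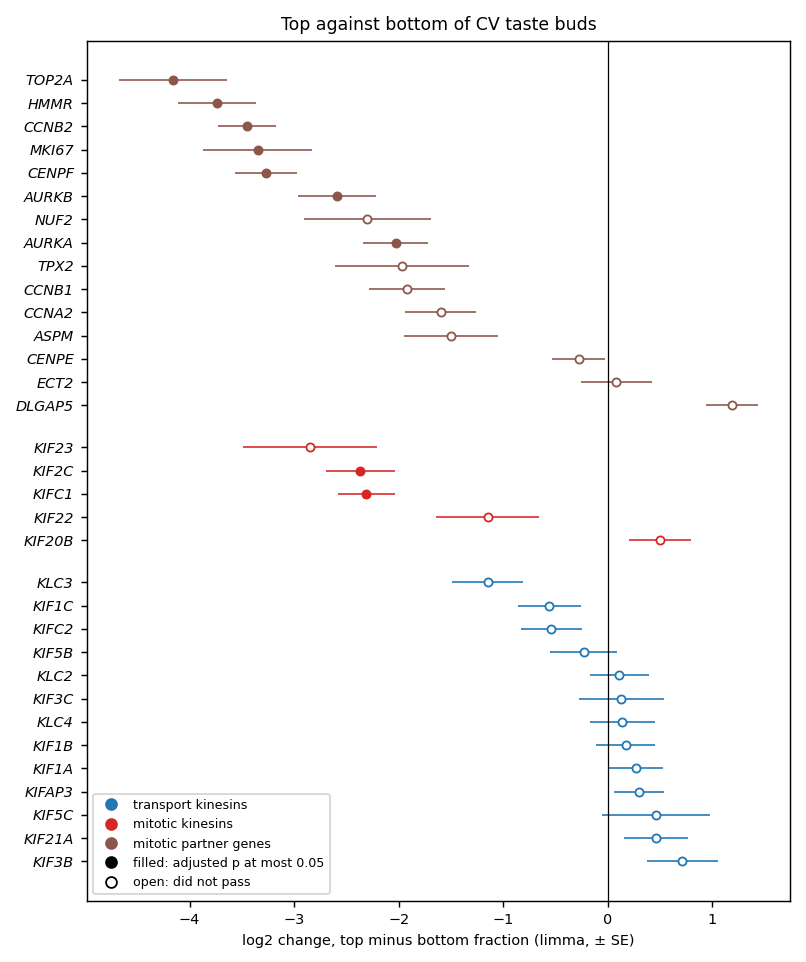
Log2 change between the top and the bottom fraction of CV taste buds for the tested transport kinesins, mitotic kinesins and mitotic partner genes, with standard errors from limma. Filled symbols passed an adjusted p of 0.05. All 13 tested transport kinesins are open symbols between -1.15 and 0.71, while KIF2C, KIFC1 and 7 partner genes are filled and lie at -2.03 or lower.

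The fractions were also set against the LE next to CV papillae, the same 4 LE samples that served whole CV taste buds. Tissue and array set cannot be told apart in this comparison, since the fractions came from the second array set and the LE from the first. The top fraction had 10 kinesins higher and 5 lower (25.1% and 19.3% of all probe sets), and the bottom fraction 16 higher and 5 lower (23.1% and 19.0%), among 32 tested. KLC4 had the largest increase, 4.18 ± 0.58 in the top and 4.04 ± 0.58 in the bottom. Of the 7 mitotic kinesins, 6 were higher in the bottom fraction (KIF23, KIFC1, KIF4A, KIF22, KIF2C and KIF18A, by 2.06 to 3.17 log2 units), and KIF18A and KIF22 were higher in the top (2.24 ± 0.62 and 1.69 ± 0.49). KIFC1 reached 25 units in 4 bottom, 2 top and 1 other sample, and KIF18A in 1 bottom, 2 top and 1 other sample. These genes thus passed the filter mainly through the fractions, and the count is no measure of the class. KIFC1, KIF4A, KIF2C and KIF18A were under 25 units in all 4 LE samples, so that their changes rest on values below that minimum. KIF22 went the other way by its second probe set, which was lower in the top (-0.79 ± 0.31, adjusted p = 0.0379) and in the bottom fraction (-0.76 ± 0.31, adjusted p = 0.0472).

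The partners of transport kinesins were described from lists. Of 13 tested genes of intraflagellar transport, the cargo system of kinesin-2 in cilia, 4 were higher in CV and 7 in FG taste buds, beside 17.3% and 21.1% of all tested probe sets, and none was called lower. WDR35 ran from 458 to 898 units in CV taste buds against 11.7 to 118 in the adjacent LE (4.35 ± 0.79 log2 units, adjusted p = 0.000784) and rose by 5.21 ± 0.64 in FG taste buds. IFT74 rose by 3.67 ± 0.61 and 4.06 ± 0.50. Between the fractions only IFT46 of that list passed the test, lower in the top (-4.22 ± 0.45, adjusted p = 0.0235).

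Tubulins and microtubule-associated proteins of neurons were higher in 6 of 8 tested in CV and in FG taste buds, against the same 17.3% and 21.1%. TUBB2B, a beta-tubulin, ran from 3362 to 3881 units in CV taste buds against 6.91 to 184 in the adjacent LE (7.72 ± 0.64 log2 units, adjusted p = 9.91e-07), and it rose by 7.99 ± 0.52 in FG taste buds. MAP1B, which stabilizes axonal microtubules, rose by 4.74 ± 0.59 and 7.02 ± 0.48. None of the list was called lower, and TUBB3 and DCX had changes below 0 in CV taste buds that did not pass the test (-0.61 ± 0.67 and -0.15 ± 0.62).

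Dynein and dynactin genes, the machinery of minus-end transport, had 2 of 12 higher and 3 lower in CV, and 2 higher and 5 lower in FG taste buds. With 17.3% higher and 18.0% lower over all probe sets in CV and 21.1% and 20.2% in FG taste buds, the counts in CV and the higher ones in FG taste buds are near the background. The adaptor BICD1 ran from 86.2 to 342 units in CV taste buds against 3.05 to 14.0 in LE and rose by 4.73 ± 0.71 log2 units (adjusted p = 0.000181), while its relative BICD2 fell by 2.26 (SE 0.32, adjusted p = 0.000124). Of 13 tested kinesin adaptors, 1 was higher and 4 lower in CV taste buds, and 2 were higher and 3 lower in FG taste buds, again near those shares in FG taste buds. TRAK2, which couples kinesin-1 to mitochondria, rose at both sites (3.93 ± 1.21, adjusted p = 0.0214, and 3.60 ± 0.99, adjusted p = 0.0105). PPFIA3, a liprin that binds KIF1A, was lower at both (-1.59 ± 0.37, adjusted p = 0.00473, and -0.86 ± 0.31, adjusted p = 0.0362).

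The members called in no comparison within an array set were mostly dim. KIF6, KIF24, KIF27, KIF3A, KLC1 and KIF13A were under 25 units in all but 1 to 4 samples each, and KIF12, KIF26A and KIF17 in all but 4 to 6. A probe set annotated KIF27 but named HS6ST3 by the study, and so no member, reached 124 units in the top fraction. It was higher in CV (2.08 ± 0.48, adjusted p = 0.00435) and FG taste buds (1.23 ± 0.39, adjusted p = 0.0234). Another probe set, annotated HS6ST3, stayed between 7.35 and 25.3 units. Which gene the brighter one measures was not settled here. KIF25, with 36.1 to 107 units over all samples, KIFC2, with 67.3 to 522.5, KLC2, with 19.6 to 76.7, and KIF9, with 6.40 to 339, reached 25 units in at least 23 samples each. By their brightest probe sets they passed no test within an array set. The comparisons of the fractions with LE, which span both array sets, are not covered by this statement. KIF9, a motor of ciliary tissues, was lower in CV taste buds of 4 of 4 animals without passing the test (-1.77 ± 0.96, adjusted p = 0.169).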

How the data were processed

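Affymetrix Rhesus Macaque Genome arrays measured 28 laser-captured samples. Per the labels the RNA was amplified with the NuGEN Ovation Biotin system, while the study's methods name another NuGEN kit. The authors' deposited values are linear intensities, background corrected and quantile normalized over all arrays with GC-RMA in GeneSpring GX (versions: not given in the sources used here). Arrays have no read depth, and the number of animals limits the precision.

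Intensities were log2 transformed and fitted with limma 3.58.1 in R 4.3.3. Probe sets of at least 25 units in at least 4 samples of the fit were tested (26176 in the first array set, 21167 in the second, 27751 in both), with Benjamini-Hochberg adjustment over all of them and a call at 0.05. The animal was a fixed block within an array set (11 and 3 residual degrees of freedom) and a random block over both (correlation 0.0394). The animal identities in the labels give the pairing. Deviations from the group means correlated on average by 0.07 within and -0.02 between animals (CV taste buds with LE), 0.05 and -0.01 (FG taste buds with LE), and 0.12 and -0.04 (top with bottom). Folds are ratios of geometric means with values under 25 raised to 25, given as "at least" where the dimmer group was raised.

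Probe sets carry the symbol of the study's gene table, otherwise that of the array annotation, and 5 members were named by the study. Members called within an array set were named with values (of over 15, those with the largest changes), as were up to 4 called genes of each partner list. KIF5B and KIF19 in FG taste buds were added after their values were seen. The members, classes and lists were chosen with earlier results of these data known. Promoter and protein sequences were not used here. The fits were tested on simulated data. The alternatives were no filter, raised low values, centered arrays, no animal block, pooled LE, the second brightest probe set, the paired test of the methods on the same values, and each animal left out.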

Additional observations from a re-analysis of the deposited data

Results flagged for a closer look

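In 7 of 114 groups of 4 or 6 samples of the 19 kinesins called within an array set (6.14%), 1 sample stood far from the others, by the gap to its nearest neighbor as a share of the group's whole log2 range. Chance gives about 1 in 20. KIF26B was highest in animal 5 in CV taste buds (486 units, a share of 0.875) and in FG taste buds (354.5 units, 0.647). KIF2C was highest in the bottom fraction of animal 9 (191 units, 0.909) and in the LE next to FG papillae of animal 6 (137 units, 0.691). KIF1C was highest in the LE next to CV papillae of animal 1 (2427 units, 0.903) and lowest in the top fraction of animal 10 (447 units, 0.966). KIFAP3 was highest in the LE next to CV papillae of animal 3 (1514 units, 0.924).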

How the results depend on the processing

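For the 32 calls of single kinesins, 389 values were computed under the alternatives, of which 338 kept the direction and the call, 48 lost the call and 3 changed sign. The sign changed with the second brightest probe set for KIF1B (0.06 for CV and 0.37 for FG taste buds) and for KIF20B in FG taste buds (0.69). No replicate block, that is, the fit without the animal, changed none of the 32 calls and gave 8 kinesins higher and 5 lower for CV, 9 and 8 for FG taste buds, and 2 lower in the top fraction. The paired test of the methods, after adjustment, left 2 higher and 3 lower in CV taste buds, 0 higher in LE next to CV papillae and 0 lower in the top fraction. In FG taste buds 13 were lower with centered arrays. The difference between the CV and FG changes held 1 lower kinesin, KIF16B, with low values raised. The count lower in the top fraction was 0 without the filter, 1 with low values raised, 1 with the second brightest probe set, and 0 to 0 with each animal left out. In these last fits fewer samples entered, and at most 1 of all probe sets passed. The count higher in LE next to CV papillae was 0 to 2 with each animal left out. Otherwise the causes were not tested. Signals under 25 units limit KIF16B, KIF2C, KIF5C and the other dim motors.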
